A study of Mus musculus with 20 samples.

Results

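The genes described are 8 genes of cholesterol synthesis in mouse distal colon. Hmgcs1, Idi1, Fdft1, Sqle, Lss and Cyp51 encode enzymes of the pathway, and Srebf2 and Insig1 encode proteins that control it. They were chosen by symbol, and each symbol matched 1 of the 26619 gene identifiers in the count table through the GENCODE annotation. All 8 passed the filter on low counts, among 17893 genes that did, so no member was lost. The lowest value of any member in any mouse was 16.8 CPM (Lss at 2% RPS), where CPM is counts per megacount of the TMM-scaled library.

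RNA was sequenced from a piece of distal colon taken near the anal end of 20 C57BL/6 mice, with 5 mice on each of 4 diets. After weaning every mouse, controls included, was put on the Total Western Diet (TWD), a diet with the nutrient profile of typical American intake, and stayed on it for 6 weeks. The mice then ate, for a further 3 weeks, the TWD with 0, 2, 5 or 10% resistant potato starch (RPS), which the labels name raw potato starch. The question was how colon transcripts differ as RPS, a starch that escapes digestion and is fermented in the large bowel, is added to this diet. Each library came from 1 mouse, and no further allele or agent is given for any group.

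Cholesterol is built from acetyl-CoA through mevalonate, isoprenoid diphosphates, squalene and lanosterol. The transcription factor SREBP-2, the product of Srebf2, is held in the endoplasmic reticulum while sterols are plentiful, with the help of the INSIG1 protein. When sterols fall, SREBP-2 moves to the Golgi, is cut, and its freed part enters the nucleus and raises transcription of most genes of the pathway and of Insig1 itself. When sterols rise, the LXR receptors raise genes of sterol export instead. Colon epithelium makes cholesterol for the membranes of its rapidly renewed cells.

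Upstream sequences are shown because the 8 genes moved together between mice (below), and sterol regulatory elements and CCAAT boxes are textbook features of SREBP-2 targets. The 4 shown are those in which a searched motif was found before the annotated exons. The like stretches of Lss (158 bases) and Cyp51 (245 bases) hold neither motif and are not shown, and the windows of Idi1 and Fdft1 lie wholly within the annotated gene. Each sequence is from GRCm39 and reads 5′ to 3′ on the strand of the gene, here the plus strand. It runs from 250 bases before the start of the canonical transcript to the last base before any annotated exon of the gene. Capitals mark CCAAT on either strand (ATTGG is its reverse complement) and TCACNCCAC, a form of the sterol regulatory element, on either strand. The motifs do not overlap.
Srebf2, chr15:82031132-82031381: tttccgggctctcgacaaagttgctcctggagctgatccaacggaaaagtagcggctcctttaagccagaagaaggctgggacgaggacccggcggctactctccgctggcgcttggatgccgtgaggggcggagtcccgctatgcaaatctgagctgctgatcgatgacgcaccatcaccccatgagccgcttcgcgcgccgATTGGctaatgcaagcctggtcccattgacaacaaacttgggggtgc
Insig1, chr5:28276077-28276314: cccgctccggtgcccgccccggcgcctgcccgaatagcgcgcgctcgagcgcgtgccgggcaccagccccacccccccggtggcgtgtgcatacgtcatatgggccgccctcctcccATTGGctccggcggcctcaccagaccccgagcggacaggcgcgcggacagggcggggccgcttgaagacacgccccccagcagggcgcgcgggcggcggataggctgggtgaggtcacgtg
Hmgcs1, chr13:120151732-120151914: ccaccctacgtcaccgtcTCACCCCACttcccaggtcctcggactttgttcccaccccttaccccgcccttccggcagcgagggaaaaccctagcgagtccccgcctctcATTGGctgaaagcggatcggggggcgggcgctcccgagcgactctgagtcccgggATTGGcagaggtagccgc
Sqle, chr15:59186632-59186868: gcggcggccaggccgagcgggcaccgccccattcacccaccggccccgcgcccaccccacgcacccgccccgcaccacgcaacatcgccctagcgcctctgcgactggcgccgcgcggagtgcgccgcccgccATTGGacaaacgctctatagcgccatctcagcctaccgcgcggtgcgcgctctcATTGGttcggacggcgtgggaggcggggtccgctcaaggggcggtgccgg

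In windows from 250 bases before to 50 bases after the start, CCAAT was found in 8 of 8 members and in 39.9% of 21770 protein-coding promoters. Fdft1 had 4 copies, Idi1 had 3, Hmgcs1 and Sqle had 2 each and Srebf2, Insig1, Lss and Cyp51 had 1 each. The single copy in Cyp51 lies after the start, at bases 21 to 25. CCAAT was also found in 3 of 6 other mevalonate and isoprenoid enzymes and in 7 of 9 other enzymes after lanosterol. In the remaining lists it was in 2 of 8 genes of sterol sensing and SREBP processing and 6 of 10 of uptake and transport. For efflux and LXR it was 5 of 11, and for fatty acid synthesis 6 of 13. TCACNCCAC was found in 1 of the 8, Hmgcs1, with its first base 232 bases before the start, and in 1.34% of all promoters. It was in 4 of 13 genes of fatty acid synthesis. A match is a description of the letters in this window, and other forms of the element were not searched for.

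Srebf2 spans chr15:82031382-82093201 and Insig1 chr5:28276315-28283668 in GRCm39. Hmgcs1 lies at chr13:120151915-120170470, Idi1 at chr13:8935537-8942487, Fdft1 at chr14:63382189-63417027 and Sqle at chr15:59186869-59203043. Lss lies at chr10:76367298-76392976 and Cyp51 at chr5:4123416-4154751. Counts are per gene, and every member has an annotated neighbor on the opposite strand. Cyp51 shares 1253 exonic bases with Akap9, Fdft1 shares 1184 with Ctsb, Srebf2 shares 686 with Shisa8 and Sqle shares 470 with Washc5. The library kit keeps the strand, but whether the counting used it is not given in the sources used here, so these counts are uncertain to that extent. Idi1 has 5 annotated pseudogene copies without a row in the count table, and how reads that match several places were handled is not given either.

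Total counts lay between 18.4 and 35.0 megacounts per mouse, and the controls had the deepest libraries on average. The 9 epithelium markers and the 7 smooth muscle markers were present in every mouse, with Epcam at 1544 CPM and Cdx2 at 11.5 CPM on average at 0% RPS. These markers do not separate distal colon from other pieces of intestine, so the position in the tissue label was not tested. Groups follow the description label, but for 3 mice the treatment label gives another diet. Mouse RS10_717 is 5% RPS by the first and 2% by the second, RS10_725 is 10% by the first and 5% by the second, and RS10_748 is 2% by the first and 10% by the second. Pancreatic acinar transcripts reached a sum of 5304 CPM in mouse RS10_721 (5% RPS) and 472 CPM in mouse RS10_784 (10% RPS), against at most 13.8 CPM in the other 18 mice. Mice are named by their title codes, with values in the order of the codes within a diet.

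Per kilobase of merged exons, Hmgcs1 had the highest level of the 8 at 0% RPS, with 31.8 ± 16.2 CPM per kb (SD, n = 5). Srebf2 followed at 23.7 ± 3.33, Idi1 at 19.5 ± 10.2, Fdft1 at 18.5 ± 9.94, Insig1 at 16.6 ± 8.69, Cyp51 at 10.5 ± 5.69 and Sqle at 8.32 ± 3.05 CPM per kb. Lss was lowest, at 2.25 ± 1.17 CPM per kb. The gap from Sqle to Lss was the one step in this order that was larger than the SDs of both neighbors. The other gaps did not exceed the SDs of both neighbors. The genes were measured in the same mice and vary together (below), so these SDs do not test a difference between genes. The order depends on the length used. Per kilobase of the longest transcript, Srebf2 (41.6) was above Hmgcs1 (39.7) and Sqle (16.1) above Cyp51 (12.6) at 0% RPS. Lss was still lowest, at 3.65 CPM per kb.

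None of the 8 genes passed the test after adjustment over all genes, and Srebf2 came nearest at 10% RPS, with a small difference and the smallest spread of the 8. In the 0% RPS mice RS10_701, RS10_703, RS10_704, RS10_707 and RS10_708, Srebf2 was at 217, 246, 261, 199 and 186 CPM. At 2% RPS, mice RS10_709, RS10_712, RS10_715, RS10_716 and RS10_748 had 194, 223, 293, 224 and 234 CPM. At 5% RPS, mice RS10_717, RS10_718, RS10_719, RS10_721 and RS10_724 had 333, 252, 283, 301 and 221 CPM. At 10% RPS, mice RS10_725, RS10_727, RS10_729, RS10_731 and RS10_784 had 274, 216, 315, 297 and 325 CPM. Thus 4 of 5 mice at 10% and 3 of 5 at 5% lay above all controls, and mouse RS10_727, at the lowest value of its diet, lay within the control range. The log2 difference from 0% RPS was 0.36 ± 0.13 (SE) at 10%, with an edgeR unadjusted p of 0.00941 and an adjusted p of 0.182. It was 0.32 ± 0.13 at 5% (edgeR unadjusted p = 0.0184, adjusted p = 0.449) and 0.07 ± 0.13 at 2% (unadjusted p = 0.568).

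Insig1, whose product keeps SREBP-2 in the endoplasmic reticulum and which is itself a target of it, had the least clear difference at 10% RPS. Its CPM was 61.0, 45.5, 154, 68.9 and 75.0 at 0% RPS and 42.2, 49.1, 195, 115 and 109 at 10% RPS. At 10% RPS, 1 mouse lay below all controls (RS10_725) and 1 above them all (RS10_729), so the 10% group covered the whole control range. At 2% and 5% RPS its CPM was 67.4, 107, 67.3, 109 and 74.9 and 147, 94.1, 132, 72.5 and 99.4, all within the control range. The log2 difference was 0.34 ± 0.39 at 10% RPS (edgeR adjusted p = 0.738), and it was -0.03 without mouse RS10_729.

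Hmgcs1, whose enzyme joins acetyl-CoA and acetoacetyl-CoA to HMG-CoA, was 101, 127, 314, 133 and 162 CPM in the 5 controls. At 10% RPS the 5 mice had 179, 123, 456, 391 and 307 CPM. The means were 167 ± 85.1 CPM and 291 ± 140.2 CPM (SD, n = 5), yet 3 of the 5 mice at 10% RPS lay within the control range, which control mouse RS10_704 widened. The 2% RPS mice had 93.7, 236, 251, 205 and 222 CPM and the 5% RPS mice 408, 266, 318, 235 and 204 CPM. The log2 difference was 0.80 ± 0.37 at 10% RPS (edgeR unadjusted p = 0.0478, adjusted p = 0.324) and 0.78 ± 0.37 at 5% (unadjusted p = 0.054).

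Idi1, which interconverts the isoprenoid building blocks isopentenyl and dimethylallyl diphosphate, had the largest difference at 10% RPS of the 8 and the widest spread within diets. It was at 39.0, 74.3, 128, 40.4 and 63.7 CPM in controls and 64.7, 42.9, 204, 214 and 160.1 CPM at 10% RPS. Mice RS10_729, RS10_731 and RS10_784 lay above all controls while RS10_725 and RS10_727 lay among them. At 2% and 5% RPS the values were 42.5, 98.8, 165, 84.6 and 124 CPM and 184, 115, 153, 81.3 and 83.8 CPM, with 1 and 2 mice above all controls. The log2 difference at 10% RPS was 0.99 ± 0.47 (edgeR unadjusted p = 0.0497, adjusted p = 0.329).

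Fdft1, squalene synthase, commits the pathway to sterols. It was at 58.6, 67.5, 171, 60.3 and 84.5 CPM in controls, 57.5, 138, 122, 114 and 123 CPM at 2%, 224, 127, 197, 96.0 and 121 CPM at 5% and 73.2, 59.7, 209, 174 and 146 CPM at 10% RPS. Only 2 mice at 5% and 2 at 10% RPS exceeded the control mouse RS10_704. The log2 differences were 0.79 ± 0.39 at 5% and 0.58 ± 0.39 at 10% RPS, with edgeR adjusted p of 0.553 and 0.502.

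Sqle, squalene epoxidase, a rate-limiting step of sterol synthesis, had the smallest unadjusted p of the enzymes at 5% and 10% RPS. The controls had 54.7, 69.3, 119.7, 52.8 and 73.3 CPM and the 2% RPS mice 48.2, 99.7, 109, 84.7 and 113 CPM. The 5% RPS mice had 193, 111, 152, 113 and 100.1 CPM and the 10% RPS mice 80.0, 63.4, 175, 164 and 132 CPM. All 5 mice at 5% RPS lay above 4 of the 5 controls, and 2 of them above mouse RS10_704 as well. At 10% RPS, 3 mice lay above all controls. The log2 difference was 0.86 ± 0.31 at 5% (edgeR unadjusted p = 0.0136, adjusted p = 0.41) and 0.73 ± 0.31 at 10% RPS (unadjusted p = 0.0304, adjusted p = 0.277).

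Lss closes epoxidized squalene into lanosterol, and Cyp51 takes the first methyl group off lanosterol. Lss was at 17.4, 18.7, 48.9, 18.5 and 24.2 CPM in controls and 17.6, 17.2, 70.6, 60.9 and 40.8 CPM at 10% RPS. Cyp51 was at 37.0, 66.5, 118, 35.5 and 54.8 CPM in controls and 61.7, 46.9, 171, 161 and 114 CPM at 10% RPS. In both genes mice RS10_729 and RS10_731 lay above every control and the other 3 mice did not. At 5% RPS Lss was at 65.9, 35.2, 57.1, 25.2 and 35.4 CPM and Cyp51 at 177, 100.3, 139, 92.0 and 77.2 CPM, where mice RS10_717 and RS10_719 lay above all controls. At 2% RPS Lss ranged from 16.8 to 46.8 CPM and Cyp51 from 43.9 to 135 CPM. The log2 difference at 10% RPS was 0.70 ± 0.43 for Lss (edgeR adjusted p = 0.456) and 0.83 ± 0.41 for Cyp51 (adjusted p = 0.352), and Cyp51 had 0.91 ± 0.41 at 5% RPS (edgeR unadjusted p = 0.0426, adjusted p = 0.531).

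**Figure D1:**
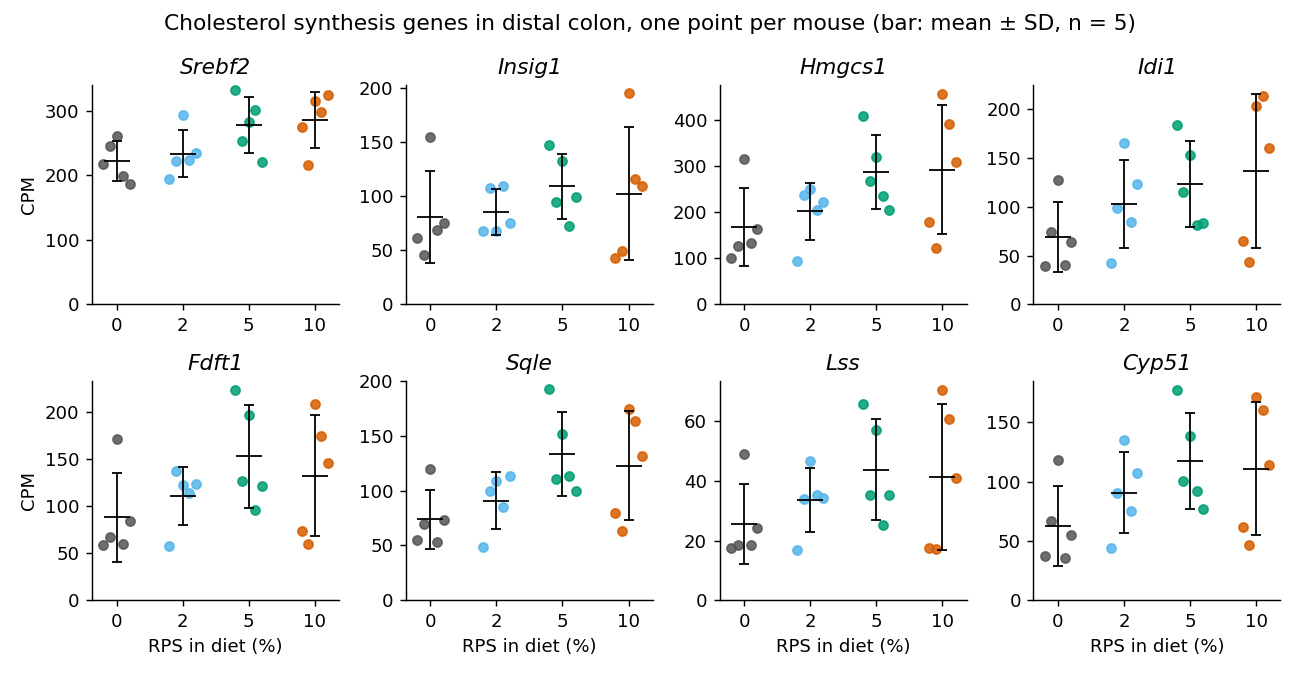
CPM (linear axis from 0) of the 8 genes against the RPS percent of the diet, with 1 point per mouse and the mean ± SD of 5 mice in black. The diets overlap in every panel, 1 control mouse (RS10_704) stands above the other 4 in most panels, and at 10% RPS 3 mice are high and 2 low for the enzymes.

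Counted over the 8 genes, all 8 log2 differences were above 0 at 2%, at 5% and at 10% RPS, and edgeR called none (adjusted p no higher than 0.05 with a change of 1.5-fold or more). Of all 17893 genes tested, edgeR called 0.0391% at 10%, 0% at 5% and 0% at 2% RPS. At an unadjusted p under 0.05, 4 members were higher at 10% RPS (Srebf2, Hmgcs1, Idi1 and Sqle), where 7.32% of all genes were. At 5% RPS 3 were higher (Srebf2, Sqle and Cyp51), against 4.69% of all genes, and at 2% RPS 0 were, against 0.693%. DESeq2 likewise called 0 members in the 3 comparisons, where it called 1.25%, 0.195% and 0.00386% of the genes it adjusted at 10%, 5% and 2% RPS. No member had all 5 mice of an RPS diet above all 5 controls, a pattern that 1.13%, 0.464% and 0.112% of the genes showed at 10%, 5% and 2% RPS. The 3 comparisons share their 5 controls, and the 8 genes vary together, so these counts are not 8 separate observations. The median log2 difference over the members was 0.72 at 10%, 0.785 at 5% and 0.31 at 2% RPS, beside -0.01, -0.01 and -0.001 over all genes tested.

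**Figure D2:**
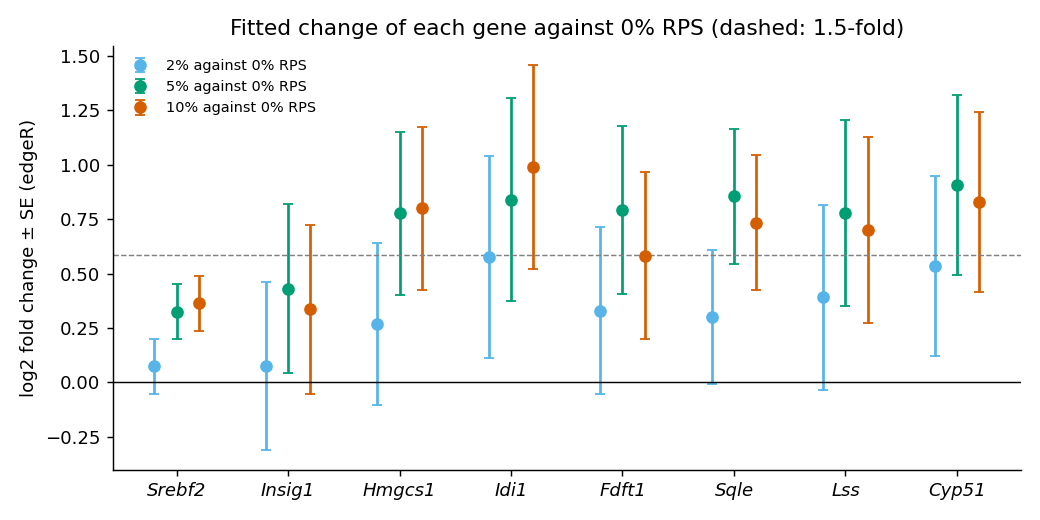
Log2 fold change against 0% RPS (points, ± SE from edgeR) of each of the 8 genes at 2, 5 and 10% RPS, with the 1.5-fold line dashed. All points lie above 0, those at 2% RPS are the lowest for each gene, and Srebf2 has the narrowest errors.

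As a linear trend over RPS percent, expressed per 10 percentage points, Srebf2 had a log2 slope of 0.38 ± 0.12 (edgeR unadjusted p = 0.00398, adjusted p = 0.0838). Hmgcs1 had 0.81 ± 0.35 and Sqle 0.75 ± 0.31, with edgeR unadjusted p of 0.0333 and 0.0285. These 3 members were below 0.05 before adjustment, and 9.00% of all genes were so with a positive slope. None of the 8 and 2.10% of all genes were called by edgeR. DESeq2 called 1 member, Srebf2, at an adjusted p of 0.0401, and 5.60% of the genes it adjusted. In edgeR Srebf2 passed once mouse RS10_727 was left out, with an adjusted p of 0.0159, and in no other omission of 1 mouse. For a difference between any of the 4 diets, edgeR gave 1 member an unadjusted p under 0.05, Srebf2 (0.0206), against 10.6% of all genes. It called 0 members and 0.0727% of genes, and DESeq2 called 0 members and 2.09% of genes.

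These unadjusted counts were unstable. The count at 10% RPS changed with the omission of most single mice, also of mice on other diets, and that at 5% with some. Without control mouse RS10_704, 7 members instead of 4 fell below 0.05 at 10% RPS and 8 instead of 3 at 5%, and without RS10_725 or RS10_727, 6 did at 10%. Hmgcs1 and Idi1 lay just under 0.05 at 10% RPS, and the count there was 1 without RS10_701, RS10_703, RS10_707, RS10_729, RS10_731 or RS10_784 and 2 without RS10_708, RS10_712, RS10_716, RS10_718, RS10_719, RS10_721, RS10_724 or RS10_748. At 5% it was 1 without RS10_707, RS10_708 or RS10_717 and 5 without RS10_709 or RS10_727. Of all genes tested, 2718 of 17893 at 10% and 1644 at 5% were below 0.05 with every mouse kept. Without RS10_704 these were 2999 of 18003 and 2095. At 10% there were 2461 of 18081 without RS10_725 and 3512 of 18096 without RS10_727. Over the omissions of 1 mouse the range was 1825 to 3512 at 10% and 1159 to 2095 at 5%, so the whole table moved too. Without the 3 mice whose labels disagree the member counts were 6 at 10%, 1 at 5% and 6 for the trend. Those over all genes were 2324, 1111 and 3015 of 17928. With groups by the treatment label the member counts were 5, 0 and 2. Those over all genes were then 1895, 1342 and 2318 of 17893. In none of these settings was a member called by edgeR in a comparison with 0% RPS, and all 8 differences at 5% and 10% RPS stayed above 0 without the 3 mice.

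Epithelial marker levels were related to some of these genes, with 3 of 8 members passing adjustment by r and 5 by rho. The summed CPM of the 9 epithelium markers ranged from 10982 to 15646 (median 12877) at 0% RPS, from 12524 to 14447 (median 13360) at 2%, from 13123 to 18256 (median 14724) at 5% and from 13423 to 17447 (median 14631) at 10% RPS, and none of the 9 was at 0. Most of the 9 had small differences at 10% RPS, with log2 values of 0.05 for Epcam, 0.11 for Cdh1, 0.19 for Krt8, 0.26 for Krt18, 0.08 for Krt19, 0.04 for Cdx1 and 0.24 for Vil1 (edgeR adjusted p of at least 0.256 for these 7). The 2 with the largest differences, named after their values were seen, were Krt20 and Cdx2. Krt20, of surface colonocytes, was at 566 CPM on average at 0% and 1059.7 CPM at 10% RPS, a log2 difference of 0.91 (edgeR adjusted p = 0.0922, DESeq2 adjusted p = 0.00567). Its log2 slope over RPS percent was 0.97 (edgeR adjusted p = 0.0249, DESeq2 adjusted p = 0.000488). Cdx2, an intestinal transcription factor, was at 11.5 and 31.3 CPM, a log2 difference of 1.44 (edgeR adjusted p = 0.139, DESeq2 adjusted p = 0.038). Over the 20 mice, the mean log2 CPM of the list was related to Srebf2 with r = 0.799 (rho = 0.818, permutation adjusted p = 0.0016 and 0.00107), to Sqle with r = 0.615 (rho = 0.704, permutation adjusted p = 0.0289 and 0.00764) and to Cyp51 with r = 0.577 (rho = 0.624, permutation adjusted p = 0.0492 and 0.033). For the other 5 members r was 0.222 (Insig1) to 0.543 (Hmgcs1), with permutation adjusted p of 0.0815 to 0.667, and by rho Hmgcs1 and Idi1 passed (0.603 and 0.584, permutation adjusted p = 0.0417 and 0.0487). Without the 2 mice farthest from the median, r was 0.824 for Srebf2, 0.618 for Sqle and 0.57 for Cyp51. With diet means subtracted, r was 0.66, 0.389 and 0.406 for these 3 and 0.078 to 0.354 for the other 5. With this level as a covariate, the log2 differences at 10% RPS lay between 0.07 (Srebf2) and 0.41 (Hmgcs1). Then 0 members had an edgeR unadjusted p under 0.05 at 10%, at 5% or for the trend. Of all 17893 genes, 826, 789 and 1033 had one, against 2718, 1644 and 3420 without the covariate. The count over all genes thus fell as well. Whether the differences of the members shrank more than those of other genes was not tested. Krt20 and Cdx2, the markers that differed most at 10% RPS, are part of this level. In pieces of whole tissue, more cells of a type and more RNA per cell cannot be told apart.

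The 8 crypt proliferation markers also ran with the members. Their summed CPM ranged from 288 to 616 at 0%, from 243 to 469.5 at 2%, from 396 to 547 at 5% and from 288 to 645 at 10% RPS, and none was at 0. Of the list, Pcna, Mcm2, Mcm5 and Mcm6, which serve DNA replication, had log2 differences of 0.55, 0.76, 0.84 and 0.83 at 10% RPS, while Mki67 had -0.06, Top2a 0.07, Cdk1 0.03 and Ccnb1 -0.25 (edgeR adjusted p of at least 0.122 for all 8). DESeq2 gave an adjusted p of 0.0275 for Mcm2 and 0.0282 for Mcm6, both with a change over 1.5-fold, and 0.0336 for Pcna, whose DESeq2 log2 difference was 0.557, below that fold. The relation with the list lay between r = 0.515 (Insig1) and r = 0.767 (Srebf2) over the 20 mice, rho was between 0.593 and 0.818, and permutation adjusted p passed 0.05 for 7 members by r and 8 by rho, with the largest at 0.112 and 0.0468. Without the 2 farthest mice r was 0.68 to 0.822, and with diet means subtracted it was 0.48 to 0.734. Of 80 such relations, of 8 members with 10 measures, none with the total count (r from -0.065 to 0.065), the clock genes (-0.41 to 0.48), smooth muscle (-0.32 to 0.18) or enteric neurons and glia (-0.54 to -0.30) passed adjustment, nor did any with the adipocyte, acinar or squamous lists, and 1 with the lymphocyte list, that of Srebf2, did. With diet means subtracted, r with the total count was 0.26 (Insig1) to 0.55 (Srebf2). The low values over 20 mice thus do not show that depth was unrelated. With diet means subtracted, r was also -0.37 to 0.55 with the clock genes and -0.65 to -0.40 with enteric neurons and glia. No p was computed for these values. With the clock genes as a covariate the unadjusted member counts were 4 at 10%, 2 at 5% and 3 for the trend. Over all genes tested they were 2226, 2043 and 2937 of 17893. The part of the other lists in the differences by diet was not tested.

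**Figure D3:**
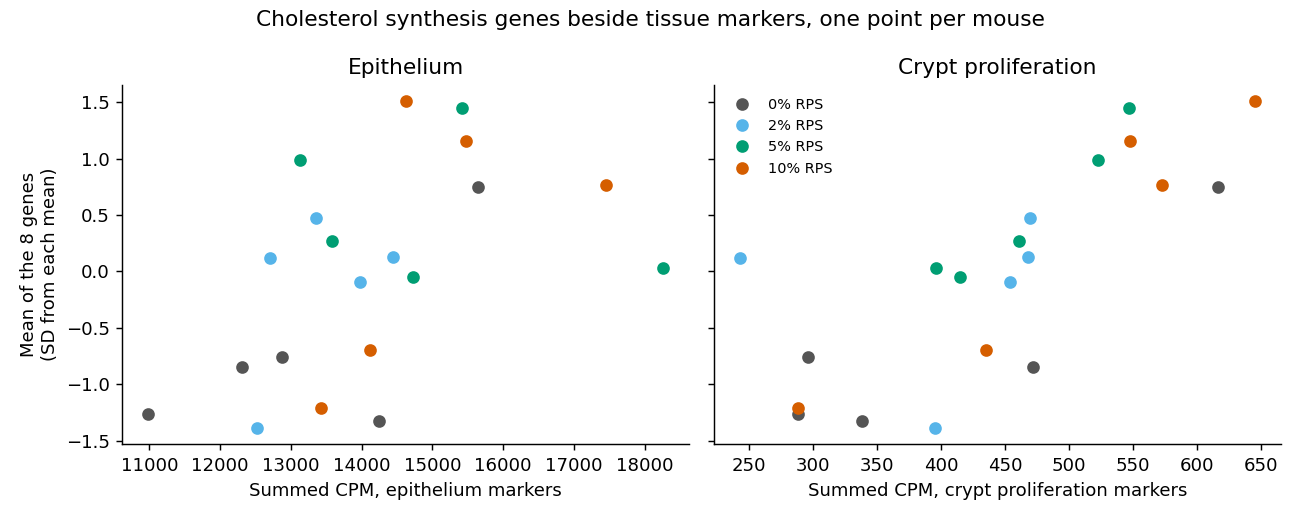
Mean of the standardized log2 CPM of the 8 genes (vertical axis, in SD) against the summed CPM of epithelium markers (left) and crypt proliferation markers (right), with 1 point per mouse colored by diet. Mice with more of the crypt markers tend to have higher values, and the axes do not start at 0.

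The spread between mice on 1 diet was wide for 7 of the 8 genes. The SD of log2 CPM within diets was 0.51 (Sqle) to 0.78 (Idi1) for Insig1 and the 6 enzymes, at the 88.6 to 97.6 percentile of all genes tested, whose median was 0.22. Srebf2, at 0.22, was near that median, which includes many genes of low count. Among the 10271 tested genes of at least 10 CPM the median was 0.155. There Srebf2 was at the 78.4 percentile and the other 7 members at 97.92 (Sqle) to 99.45 (Idi1). From the lowest to the highest of the 20 mice the level differed by 1.79 times for Srebf2 and by 3.90 (Fdft1) to 5.48 (Idi1) times for the others. Diet took up 38.1% of the variance of Srebf2, 35.5% of Sqle, 28.3% of Hmgcs1 and 27.7% of Cyp51. It took up 23.0% for Fdft1, 21.4% for Idi1, 18.3% for Lss and 9.96% for Insig1, beside a median of 16.3% over all genes. Among all genes tested, Srebf2 was at the 90.3 percentile of this share, Lss at the 55.8 and Insig1 at the 29.5.

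This spread was shared. Over the 20 mice, Pearson's r of log2 CPM between the 15 pairs of enzymes lay between 0.929 and 0.984, and Spearman's rho between 0.914 and 0.974, with permutation p adjusted over the 28 pairs of at most 1.65e-05. Insig1 had r of 0.716 to 0.88 with the enzymes and Srebf2 had r of 0.682 to 0.829, with permutation adjusted p of at most 0.000594 and 0.0014. Srebf2 and Insig1, both regulators, had the weakest relation of the 28, at r = 0.444 and rho = 0.462 (permutation adjusted p = 0.0511 and 0.0425), and r was 0.381 without the 2 farthest mice. With the diet means subtracted, the median r of the 28 pairs was 0.929, against 0.932 before, so the relation held within diets. Without the 2 mice farthest from the median of the first gene of each pair (Srebf2 in its pair with Insig1), the median r was 0.922. By the mean of the 8 genes in SD units, mice RS10_729, RS10_717, RS10_731, RS10_719, RS10_784 and RS10_704 were highest and RS10_709, RS10_701, RS10_707 and RS10_727 lowest. Every diet but the 5% one held a mouse among the lowest 4.

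**Figure D4:**
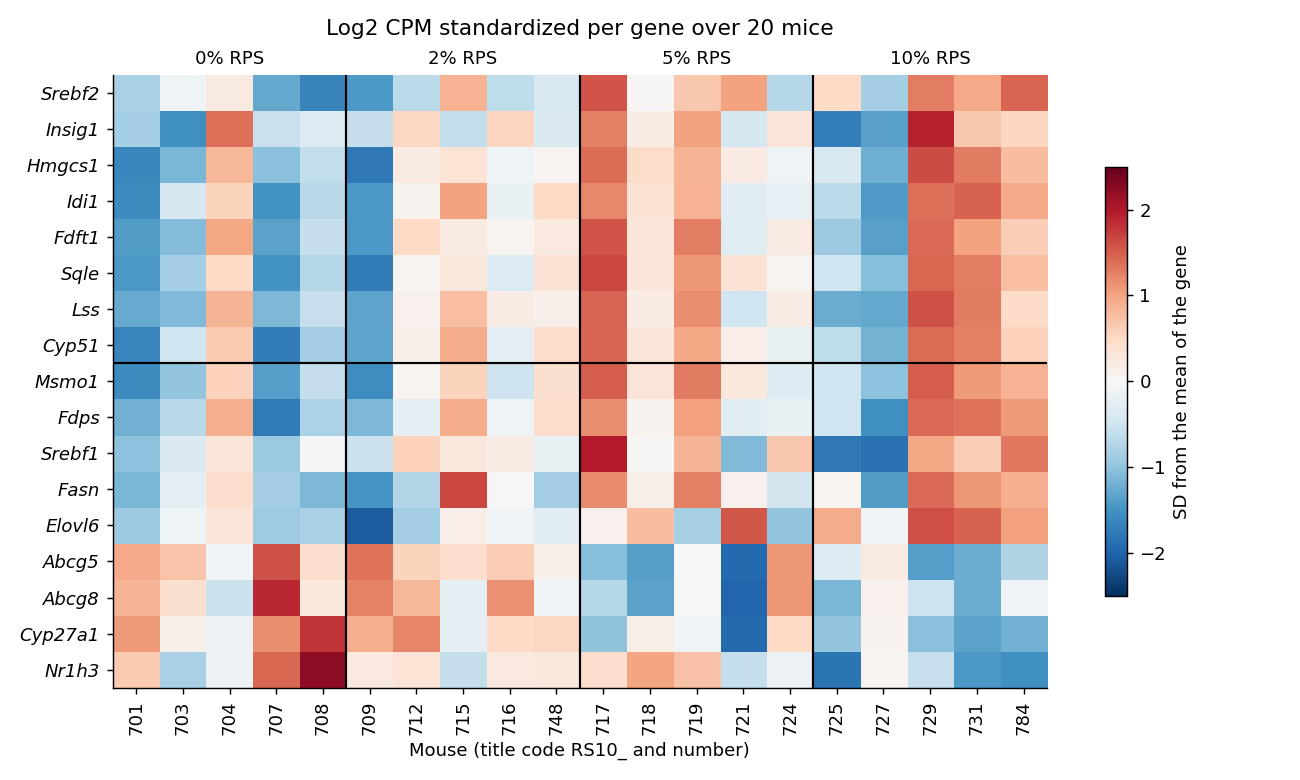
Log2 CPM of each gene in SD from its own mean (red high, blue low) in the 20 mice, ordered by diet, with the 8 genes above the line and 9 other genes of sterol and lipid metabolism below it. The 8 genes, Msmo1 and Fdps share their high and low mice, while Abcg5, Abcg8 and Cyp27a1 run mostly the other way.

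Of the genes reported here, the 10 outside the members whose log2 CPM was most like the mean of the 8 over 20 mice were Msmo1 (r = 0.98), Aacs (0.974), Mvd (0.971), Fdps (0.965), Tmem97 (0.954), Hsd17b7 (0.948), Erg28 (0.934), Acat2 (0.927), Scd2 (0.916) and Mmab (0.914). Of these, 6 are on the lists of sterol and fatty acid genes, and r over all genes tested had a median of -0.03, with 0.324% above 0.8. These values are descriptions over mice that share libraries and depth.

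The other enzymes of the pathway showed the members' direction at 10% RPS in 14 of 15 genes, where 8379 of all 17893 genes were above 0. The lists, apart from the 8 members, hold 57 genes, all tested. Msmo1, a sterol methyl oxidase that acts after lanosterol, was at 63.4, 83.4, 168, 70.0 and 99.1 CPM in controls and 104, 81.9, 255, 208 and 191 CPM at 10% RPS. As in the members, mouse RS10_704 was the highest control and mice RS10_725 and RS10_727 the lowest at 10% RPS. Its log2 difference was 0.80 ± 0.36 at 10% (edgeR adjusted p = 0.306) and 0.88 ± 0.36 at 5% (adjusted p = 0.474). Acat2, which makes acetoacetyl-CoA, had 0.77 ± 0.34, Hsd17b7, a sterol reductase, 0.54 ± 0.23 and Sc5d, a sterol desaturase, 0.29 ± 0.13. With Msmo1 these were the 4 of 15 with an unadjusted p under 0.05, where 7.32% of all genes were higher at that level, and none of the 15 was called. The median of the 15 was 0.29, and Ebp, which shifts a sterol double bond, was the one enzyme below 0, at -0.11. The smallest of the 14 positive differences were those of Ggps1 (0.03), Pmvk (0.08) and Lbr (0.08). Between mice Ggps1 ran against the mean of the members, with r = -0.48.

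The genes that sense sterols and process SREBPs showed no common direction, with 4 of 8 above 0 at 10% RPS and a median of 0.01. Srebf1, which encodes the SREBP-1 factors of fatty acid synthesis, had 0.09 ± 0.13 (edgeR adjusted p = 0.808), although it followed the members between mice (r = 0.807). In the list of uptake and transport, 6 of 10 were above 0 and the median was 0.06. None of the 10 had an unadjusted p under 0.05 at 10% or at 5% RPS.

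Genes of sterol efflux and LXR ran the other way, with 9 of 11 below 0 at 10% RPS, a median of -0.38 and 5 of 11 lower at an unadjusted p under 0.05, where 7.87% of all genes were lower at that level. At 5% RPS 2 of 11 were lower (4.50% of all genes), at 2% RPS 1 was, Apoe (0.721% of all genes), and 5 had a negative slope over RPS percent at that level (10.1%). The 2 at 5% RPS were Abcg5 and Cyp27a1. The 5 at 10% RPS, which were also the 5 of the trend, were Cyp27a1, Abcg5 and Abcg8 and, named after their values were seen, Nr1h3 and Apoe. Cyp27a1, a sterol hydroxylase whose products activate LXR, fell over RPS percent. It was at 74.2, 57.2, 53.2, 76.0 and 90.2 CPM at 0%, 70.9, 77.4, 51.9, 63.5 and 63.8 CPM at 2%, 42.0, 57.5, 54.0, 32.6 and 63.5 CPM at 5% and 42.4, 56.6, 41.6, 38.4 and 39.8 CPM at 10% RPS, where 4 of 5 mice lay below all controls. Its log2 slope per 10 percentage points was -0.72 ± 0.16 (edgeR adjusted p = 0.0249). At 10% RPS its log2 difference was -0.68 ± 0.17 (edgeR adjusted p = 0.0861, DESeq2 adjusted p = 0.0104). The slope was no longer called without mice RS10_708, RS10_729, RS10_731 or RS10_784, each left out alone (edgeR adjusted p of 0.055 to 0.0814), without the 3 mice whose labels disagree (0.0775), by the treatment label (0.253), with clock genes as a covariate (0.0768) or with epithelium as one (0.955).

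Abcg5 and Abcg8, whose products form the sterol export pump, had log2 differences of -0.98 ± 0.34 and -0.77 ± 0.32 at 10% RPS (edgeR adjusted p = 0.185 and 0.263). Their log2 slopes over RPS percent were -1.06 and -0.86 (edgeR adjusted p = 0.0756 and 0.121, DESeq2 adjusted p = 0.0288 and 0.0519). Abcg5 was at 25.6, 22.8, 15.5, 34.9 and 19.8 CPM in controls and 13.9, 18.0, 8.36, 8.93 and 11.3 CPM at 10% RPS, where 4 of 5 mice lay below all controls. With epithelium as a covariate the 2 differences were -0.18 and 0.04, so that of Abcg8 changed sign. Over 20 mice the list's r with the mean of the members had a median of -0.30, and 4 of 11 (Abcg5, Apoe, Cyp27a1 and Abcg8) were below -0.5, as were 7.25% of all genes.

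In the list of fatty acid synthesis, 9 of 13 genes were above 0 at 10% RPS, with a median of 0.22. Elovl6, which lengthens palmitate, rose over RPS percent, with a log2 slope of 0.45 ± 0.12 (edgeR adjusted p = 0.0475). Its CPM was 23.2, 27.1, 29.4, 23.3 and 23.7 at 0% and 33.0, 27.3, 37.7, 36.6 and 33.6 at 10% RPS, where 4 of 5 mice lay above all controls. This call was lost in 13 of the 20 omissions of 1 mouse (RS10_701, RS10_707, RS10_708, RS10_709, RS10_712, RS10_716, RS10_717, RS10_718, RS10_725, RS10_729, RS10_731, RS10_748 or RS10_784) and without the 3 mice whose labels disagree (edgeR adjusted p = 0.108), and the slope had an edgeR adjusted p of 0.967 with epithelium as a covariate. It was also lost without the filter on low counts, by the treatment label and with clock genes as a covariate. Elovl5 had 0.27 ± 0.10 at 10% RPS (edgeR adjusted p = 0.2). Fasn, fatty acid synthase, had 0.42 ± 0.23 (edgeR adjusted p = 0.391) and followed the members between mice with r = 0.864.

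**Figure D5:**
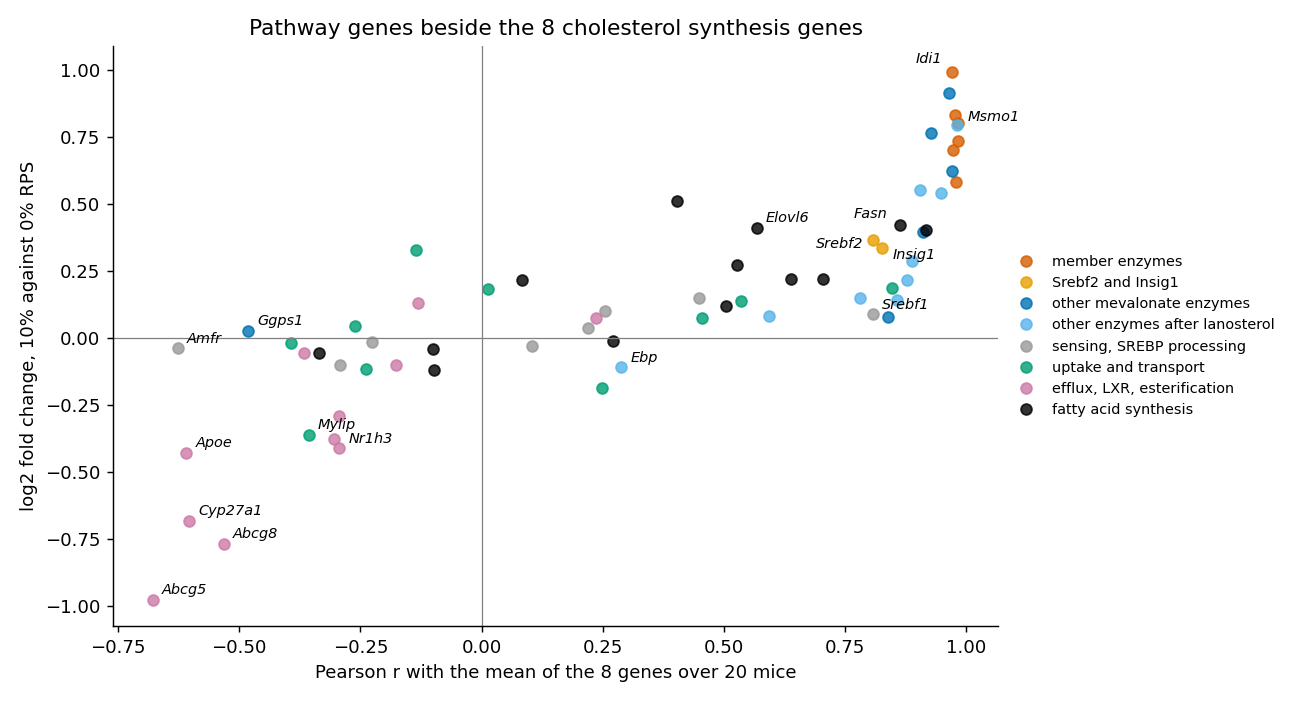
Log2 fold change at 10% against 0% RPS (vertical) against Pearson's r with the mean of the 8 genes over 20 mice (horizontal) for the 8 genes and 57 other listed genes, colored by list. Most enzymes of cholesterol synthesis gather at high r and positive change, but Ggps1 (r = -0.48) and Ebp (r = 0.29) lie apart from them. Abcg5, Abcg8, Cyp27a1 and Apoe lie at the opposite corner, at r below -0.5. The 8 genes enter the mean they are plotted against.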

How the data were processed

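The members and the gene lists were chosen with earlier results of these data known. The authors made stranded mRNA libraries, filtered short single-end reads, mapped them to GRCm39 in CLC Genomics Workbench and deposited raw counts per gene for each of the 20 mice, not normalized and not pooled. The annotation release, the strand setting and what was done with multi-mapped reads are not given in the sources used here. The study itself compared diets with DESeq2.

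Of 26619 identifiers, 26338 matched GENCODE vM39, which gave symbols, positions and the GRCm39 promoter windows, counted from the start of the canonical transcript. Counts were filtered with filterByExpr (edgeR 4.0.16 in R 4.3.3, minimum count 10), which kept 17893 of 26004 genes with at least 1 count, and scaled by TMM. The main test was edgeR's quasi-likelihood F-test (robust) in 1 fit over the 4 diets, and p-values were adjusted (Benjamini-Hochberg) across the tested genes. Calls needed an adjusted p no higher than 0.05 with a change of 1.5-fold or more, or, for the trend over RPS percent and the test of any diet, with no fold threshold. DESeq2 1.42.0, limma-voom (limma 3.58.1), RLE scaling, no filter, no robust step, the treatment label, omission of mice, thinning, and clock or epithelium covariates were alternatives. Log2 CPM used a prior count of 2, and the heat map used log2 of CPM. Correlations used 100000 two-sided permutations in Python 3.11.15 with numpy 2.4.6.

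Named genes were the members, Srebf1 and Fasn, up to 3 genes of each other list with the largest differences at 10% RPS among those with an unadjusted p under 0.05 and a mean of at least 1 CPM, every called listed gene, and the 10 genes most like the members. Some genes that this rule or the lists cover are not reported here and were left out of the lists and their counts. The edgeR procedure was tested on simulated counts. No same-diet pair of libraries was alike, with a chi-square per degree of freedom of 9.10 to 62.9 over 40 pairs. Each mouse code belongs to 1 animal on 1 diet, so no pairing exists, and whether mice shared cages is not given, so p-values measure the spread between these mice.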

Additional observations from a re-analysis of the deposited data

Results flagged for a closer look

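Among 80 groups of 5 mice tested for a mouse far from the others, 7 held one, where chance gives about 1 in 20. Of these, 5 were 1 control, mouse RS10_704, which stood above the next control mouse in Insig1 (154 against 75.0 CPM), Hmgcs1 (314 against 162 CPM), Fdft1 (171 against 84.5 CPM), Lss (48.9 against 24.2 CPM) and Hsd17b7 (21.0 against 13.1 CPM). These genes vary together, so they are not 5 separate cases. The same mouse had the highest sum of crypt proliferation markers, 616 CPM, and of epithelium markers, 15646 CPM, among the controls. At 10% RPS mouse RS10_727 stood above the others in Cyp27a1 (56.6 against 42.4 CPM), and it had the lowest total count of all, 18.4 megacounts. At 5% RPS mouse RS10_724 had a total count of 22.3 megacounts against 28.7 for the next mouse.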

How the results depend on the processing

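No member was called against 0% RPS under any setting tried. Unadjusted p under 0.05 was met at 10% RPS (4 members) by 2 members without the filter on low counts. It was met by 1 with only the 2 diets in the fit and 0 with the epithelium covariate. Of all genes (2718 of 17893 in the main fit), 3180 of 26004, 2248 of 17271 and 826 of 17893 met it in these settings, in that order. At 5% RPS (3 members) the member count was 5 in DESeq2, 7 in limma-voom, 5 without the robust step and 0 by the treatment label. It was 1 without the 3 mice whose labels disagree and 0 with the epithelium covariate. The count over all genes (1644 in the main fit) was 1869, 1722, 1687, 1342, 1111 and 789 in the same order. For the trend (3 members) the member count was 5 in DESeq2, which also called 1 member, 6 without the 3 mice and 0 with the epithelium covariate. The count over all genes (3420 in the main fit) was 3802, 3015 and 1033 in the same order. With the epithelium covariate or the treatment label edgeR called 0 of all genes for the trend, against 375 in the main fit. For any diet (1 member) the member count was 2 in DESeq2, limma-voom, RLE scaling, thinning, the clock covariate and without the robust step. It was 0 by the treatment label, without the 3 mice and with the epithelium covariate. The count over all genes (1892 in the main fit) was 2369, 2039, 1913, 1783, 1955, 1956, 1067, 1453 and 706 in the same order. Of the 57 other listed genes, DESeq2 called 1 at 10% RPS and 4 for the trend (edgeR 0 and 2), and edgeR called 0 for the trend without the 3 mice. The 4 of DESeq2 were Cyp27a1, Abcg5, Nr1h3 and Elovl6. With each mouse left out in turn, the member counts ran from 1 to 7 at 10%, 1 to 8 at 5% and 0 to 1 at 2%. They ran from 1 to 7 for the trend and 1 to 5 for any diet, and 0 to 1 members were called for the trend. Those over all genes ran from 1825 to 3512 at 10%, 1159 to 2095 at 5% and 234 to 456 at 2%. They ran from 2709 to 4240 for the trend and 1430 to 2648 for any diet. The member count for the trend was 1 without RS10_701, RS10_707, RS10_729 or RS10_731, 5 without RS10_704, 6 without RS10_725 and 7 without RS10_727. For any diet it was 2 without RS10_709, RS10_724, RS10_725 or RS10_748, 3 without RS10_727 and 5 without RS10_704.

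Signs changed for the log2 difference of Insig1 at 10% RPS (-0.0329 to 0.71 over omitted mice), of Insig1 at 2% (-0.0735 to 0.45) and of Srebf2 at 2% (-0.0214 to 0.14, and -0.0142 with the epithelium covariate). With that covariate Abcg8 at 10% RPS became 0.0405 and the slope of Srebf1 -0.0301. Of the 344 member values under settings that omit no single mouse, 342 kept their sign and their side of the adjusted p threshold. As edgeR called no member, keeping that side says little, and the size of a difference did not enter this count. Srebf2 at 10% RPS, for 1, went from 0.36 to 0.07 with the epithelium covariate and was counted as kept. RLE scaling moved the median of all genes at 10% RPS by 0.01 on the log2 scale. No paired analysis was possible because mouse numbers are unique to 1 diet. The causes were not tested. With 5 mice a diet and an SD of 0.51 to 0.78 within diets for 7 members, their log2 differences at 10% RPS had SEs of 0.31 to 0.47, which limits what can be detected.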
